A study of Mus musculus with 2 samples.

Results

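Among the RNAs of mouse embryonic stem cells labelled as Dgcr8 knockout, 45 microRNA genes outside the miR-290 cluster were counted at 10 or more reads in each library. They were 45 of 1894 rows annotated as microRNA genes, in tables of 43629 genes. The 7 microRNA rows of the miR-290 cluster on chromosome 7 were left out, and the other 1842 rows stayed under 10 counts in at least 1 library. The 45 genes were chosen by their counts in A and B, so their levels are given as a description with no test. The comparison of A with B further below rests on the same counts.

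The cells were mouse embryonic stem cells of genotype Dgcr8 knockout, made with paired CRISPR/Cas9 cuts on a 129/Ola background, at passage 7. The sample titles also hold the codes KO2 and d5, whose meaning is not given, so they may stand for a clone, a day or something else. The labels give the tissue as blastocyst, the early embryo from which such cells are derived. Polyadenylated RNA of replicates A and B was sequenced, 2 libraries of 1 group, and both carry the same knockout, so the values are levels in knockout cells and not an effect of the knockout. Whether A and B came from separate cultures or clones is not stated in the labels, so p-values measure only the spread between these libraries, which may be technical.

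A microRNA gene is transcribed as a long primary transcript with a hairpin in it. In the canonical pathway the nuclease Drosha and its RNA-binding partner Dgcr8, together the Microprocessor, cut the hairpin out in the nucleus, and Dicer then trims it to the mature microRNA, whose seed (bases 2 to 8) pairs with target messenger RNAs. Many hairpins lie in introns or exons of other genes, called hosts, and others have transcripts of their own. A library of polyadenylated RNA does not measure mature microRNAs: a count on a hairpin gene is taken as a read of a longer transcript that overlaps it. Where another gene has a near-identical transcript, the read may come from that gene instead.

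RefSeq (build GRCm38.p6) had entries for 36 of the 45 genes, with 65 mature sequences and 57 different seeds. Of these seeds, 6 belonged to more than 1 of the genes, and none matched a seed of the miR-290 cluster. The first set is shown because it holds a cluster in which every gene was counted in both libraries, miR-106a-363 on chromosome X, together with miR-106b from chromosome 5. Capitals mark the seed, written 5′ to 3′.
mmu-miR-106a-5p: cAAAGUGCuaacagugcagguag
mmu-miR-20b-5p: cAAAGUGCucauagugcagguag
mmu-miR-106b-5p: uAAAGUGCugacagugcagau
mmu-miR-18b-5p: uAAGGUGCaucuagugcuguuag
mmu-miR-19b-3p: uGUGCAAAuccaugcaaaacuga
mmu-miR-92a-3p: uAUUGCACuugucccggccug
mmu-miR-363-3p: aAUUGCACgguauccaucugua

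The seed AAAGUGC was shared by miR-106a-5p, miR-20b-5p and miR-106b-5p, and AUUGCAC by miR-92a-3p and miR-363-3p. The first 7 sequences of the second set are shown because their genes were high or differed between the libraries. The last 3 are shown as a family with a common seed, GAGGUAG, the let-7 family, whose genes were low.
mmu-miR-692: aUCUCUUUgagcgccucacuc
mmu-miR-6236: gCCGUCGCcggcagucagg
mmu-miR-296-5p: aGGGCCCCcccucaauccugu
mmu-miR-298-5p: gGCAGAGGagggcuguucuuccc
mmu-miR-5125: uCUGCCUGggauuuccuugu
mmu-miR-127-3p: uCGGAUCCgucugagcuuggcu
mmu-miR-433-3p: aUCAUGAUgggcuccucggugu
mmu-let-7a-5p: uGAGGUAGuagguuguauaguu
mmu-let-7c-5p: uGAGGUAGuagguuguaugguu
mmu-let-7g-5p: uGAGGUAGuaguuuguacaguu

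Of the genes with no RefSeq entry, 3 were short copies of one another, and 2 of their transcripts are printed here because a read that does not cover the differing base matches all of them. Each is 57 bases long, and the capital marks the 1 position at which they differ. The third copy, Gm24270, was identical to Gm23935. These are DNA letters from GENCODE M21 on GRCm38, at chr16:11144125-11144181 on the plus strand for Gm23935 and chr13:9834469-9834525 on the minus strand for Gm24187.
Gm23935: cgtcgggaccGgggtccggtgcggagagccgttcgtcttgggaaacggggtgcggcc
Gm24187: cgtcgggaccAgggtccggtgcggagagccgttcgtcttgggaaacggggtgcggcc

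The libraries held 27872396 counts in A and 30327146 in B. Dgcr8 itself had 1253 counts in A and 1942 in B, and because gene counts do not show which exons were read, this does not check the genotype. All 8 pluripotency markers looked at, such as Pou5f1 and Nanog, were at 1 CPM or more in both libraries, where CPM is counts per 1000000 of the library total. Their median was 653 CPM in A and 645 CPM in B, against 2.85 CPM in A and 2.11 CPM in B for 6 fibroblast markers, 3.95 CPM in A and 1.62 CPM in B for 5 blood markers, and 6.60 CPM in A and 3.07 CPM in B for 5 neuroectoderm markers. The highest of these were the fibroblast gene Thy1 at 31.4 CPM in A and 21.9 CPM in B, the blood gene Cd68 at 14.8 CPM in A and 23.7 CPM in B, and the neuronal gene Tubb3 at 74.7 CPM in A and 45.4 CPM in B. Endoderm markers had a median of 0.718 CPM in A and 2.37 CPM in B over 6 genes, and summed to 10.3 CPM in A and 25.1 CPM in B. The highest were Gata4, at 7.10 CPM in A and 4.91 CPM in B, and Cubn, at 1.51 CPM in A and 14.3 CPM in B. The part of all these markers in the results below was not tested.

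MicroRNA rows together held 15591 counts in A, 0.0559% of the library, and 11908 in B, 0.0393%. The 45 genes took 33.3% of these in A (Clopper-Pearson 95% limits 32.6 and 34.1) and 33.4% in B (limits 32.6 and 34.3). The miR-290 cluster took 63.1% in A and 58.4% in B. The libraries carried no molecular identifiers in the labels, so reads are not independent molecules and all intervals and limits given here cover only the counting error.

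Most of the 45 genes were low. The median level was 1.47 CPM in A, with a range of 0.359 to 46.0, and 1.42 CPM in B, with a range of 0.330 to 22.9. At least 1 CPM was reached in both libraries by 26 genes, while 15 stayed under 1 CPM in both. The 3 highest genes of each library held 47.5% of the members' counts in A and 39.1% in B. Across the 45 genes the log2 CPM of A and B correlated with a Pearson r of 0.902, and the CPM with a Spearman rho of 0.846. These describe genes of the same 2 libraries and are not tests.

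**Figure D1:**
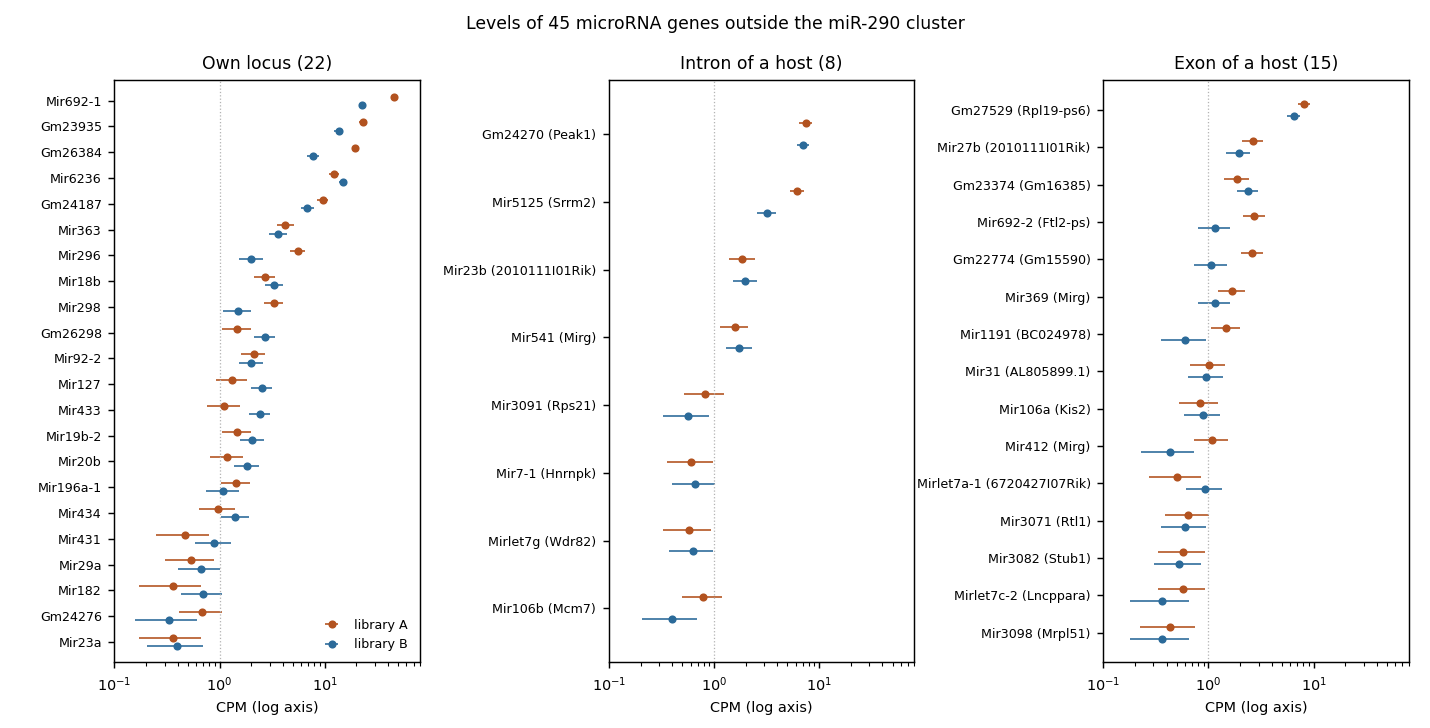
Level of each microRNA gene in library A and library B, in CPM on a log axis, with exact 95% Poisson intervals as bars, split by genomic place (22, 8 and 15 genes) and with the host in brackets. The genes run from Mir692-1, at 46.0 CPM in A and 22.9 CPM in B, to genes under 1 CPM in both libraries.

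By place on the same strand, 22 genes lay at loci of their own, 8 in introns and 15 overlapping exons of a host. Any overlap with an exon, even of 1 base, was taken as exonic. With hosts on either strand counted, the numbers were 15, 11 and 19. Among all microRNA rows outside the miR-290 cluster, 22 of 824 rows at their own locus reached 10 counts in both libraries, 8 of 720 in introns and 15 of 343 in exons. All 8 intronic genes came from the 424 rows whose host was at 10 CPM or more in both libraries, of which 261 had 0 counts. The other 296 intronic rows had a host under 10 CPM in a library or one with no row in the tables. None of these rows reached the limit, and 259 of them had 0 counts.

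The highest gene was Mir692-1 (ENSMUSG00000076218, chr17:6895229-6895337, minus strand, no host), with 1281 counts in A and 693 in B. Per library total this was 46.0 CPM in A (exact 95% Poisson limits 43.5 and 48.5) and 22.9 CPM in B (21.2 and 24.6). Mir692-2 on chromosome 4, which shares 91 of its 109 bases with the ferritin pseudogene Ftl2-ps, had 76 counts in A and 35 in B. Mir692-2 also overlaps the span of the glutamate receptor gene Grik3 on the same strand, which had 1309 in A and 2180 in B. Gm22774 on chromosome 17, which shares 91 of its 109 bases with the pseudogene Gm15590, had 73 in A and 32 in B. All 3 were higher in A, and all 3 match the messenger RNA of Ftl1, the light chain of the iron store ferritin, at 94.6%, 97.2% and 96.3% identity over their whole length. The mature miR-692 sequence printed above occurs letter for letter in transcripts of 13 other genes, Ftl1 among them. Ftl1 had 1094 counts in A and 443 in B, and Ftl2-ps had 17338 in A and 7576 in B.

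Other genes, high and low, were also near-identical to abundant transcripts. Gm26384 (chr17:21284103-21284212, minus strand) had 547 counts in A and 233 in B, and matched Eef1a1, a translation elongation factor, at 98.2% identity. Gm24276, with 19 counts in A and 10 in B, matched the same gene at 94.5%. Eef1a1 itself had 330134 counts in A and 271469 in B. Gm27529, inside a pseudogene of the ribosomal protein gene Rpl19, matched Rpl19 at 100% and had 228 counts in A and 196 in B. Gm23374, within the pseudogene Gm16385, matched the actin gene Actg1 at 98.8% and had 52 counts in A and 72 in B.

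The 57-base copies printed above were high as well. Gm23935 had 643 counts in A and 413 in B, and Gm24187 had 267 in A and 208 in B. Gm24270, in an intron of the kinase gene Peak1, had 208 in A and 214 in B. RNAs outside GENCODE M21 were not searched for matches to these copies, so reads from elsewhere may make up part or all of their counts. Gm26298 on chromosome 9 had 41 counts in A and 82 in B, and near-identical stretches stood in transcripts of 87 other genes. Mirlet7a-1 was the last gene with such a match, at 91.2% identity to its paralogue Mirlet7f-2.

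In all, 12 of the 45 genes had a near-identical transcript of another gene in GENCODE M21. Near-identical meant at least 90% identity over at least 80% of their length. These 12 genes held 66.4% of the members' counts in A and 55.7% in B. How the counting treated reads that match several places is not given in the sources used here, so the levels of these 12 genes are uncertain. The other 33 genes had a median of 1.11 CPM in A and 1.09 CPM in B, and the highest of them was Mir6236.

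Mir6236 (ENSMUSG00000098973, chr9:110281287-110281409, plus strand) had no host and no near-identical transcript in GENCODE M21. RNAs outside that annotation were not searched, so reads from elsewhere may add to its level. Mir6236 held 344 counts in A and 452 in B, or 12.3 CPM in A (limits 11.1 and 13.7) and 14.9 CPM in B (13.6 and 16.3). It was higher in B. The nearest gene on its strand, Cspg5, lay 18711 bases upstream, measured between the nearest ends, and had 489 counts in A and 120 in B.

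Mir296 (chr2:174267047-174267125) and Mir298 (chr2:174267504-174267585) lay on the minus strand of the imprinted Gnas region, with starts 457 bases apart. In mouse ES cells miR-296 is known to target messenger RNAs of pluripotency factors. Mir296 had 154 counts in A and 61 in B, and Mir298 had 91 in A and 45 in B. Both were higher in A. The nearest gene on the same strand was Nespas, an imprinted antisense RNA, 14112 bases from Mir296, with 322 counts in A and 363 in B.

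The miR-106a-363 cluster on the X chromosome is a paralogue of the miR-17-92 cluster, known for promoting cell cycle entry. All 6 of its genes reached the limit in both libraries, with hairpin starts spread over 800 bases of the minus strand. Mir106a had 23 counts in A and 27 in B, Mir18b 75 in A and 101 in B, and Mir20b 33 in A and 55 in B. Further along, Mir19b-2 had 41 in A and 62 in B, Mir92-2 had 59 in A and 61 in B, and Mir363 had 118 in A and 109 in B. Mir363, the last hairpin, was the highest in both libraries and Mir106a, the first, the lowest. Together they made 349 counts in A and 415 in B, or 12.5 CPM in A and 13.7 CPM in B. Mir106a overlapped the noncoding transcript Kis2 by 5 bases, and Kis2 had 226 counts in A and 245 in B.

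Related clusters were measured as well. The 6 genes of miR-17-92 had 0 counts in both libraries, while their host transcript Mir17hg had 3038 counts in A and 3981 in B. A count of 0 allows up to 3 counts, or 0.108 CPM in A and 0.0989 CPM in B. All 6 hairpins lay wholly inside an annotated exon of Mir17hg, whereas 5 of the 6 miR-106a-363 hairpins overlapped no annotated host. In the miR-106b-25 cluster, hosted by the replication helicase gene Mcm7, the intronic Mir106b had 22 counts in A and 12 in B, and Mir93 and Mir25, wholly inside Mcm7 exons, had 0. Over all microRNA rows outside the miR-290 cluster that lay wholly inside exons of hosts at 10 CPM or more, 106 of 116 had 0 counts in both libraries. Zero counts were also common elsewhere, in 709 of 824 rows at their own locus and 1515 of all 1887 rows outside that cluster. Whether the counting left out reads that overlap more than 1 gene is not given in the sources used here, so a 0 for such a hairpin does not show that its transcript was absent.

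**Figure D2:**
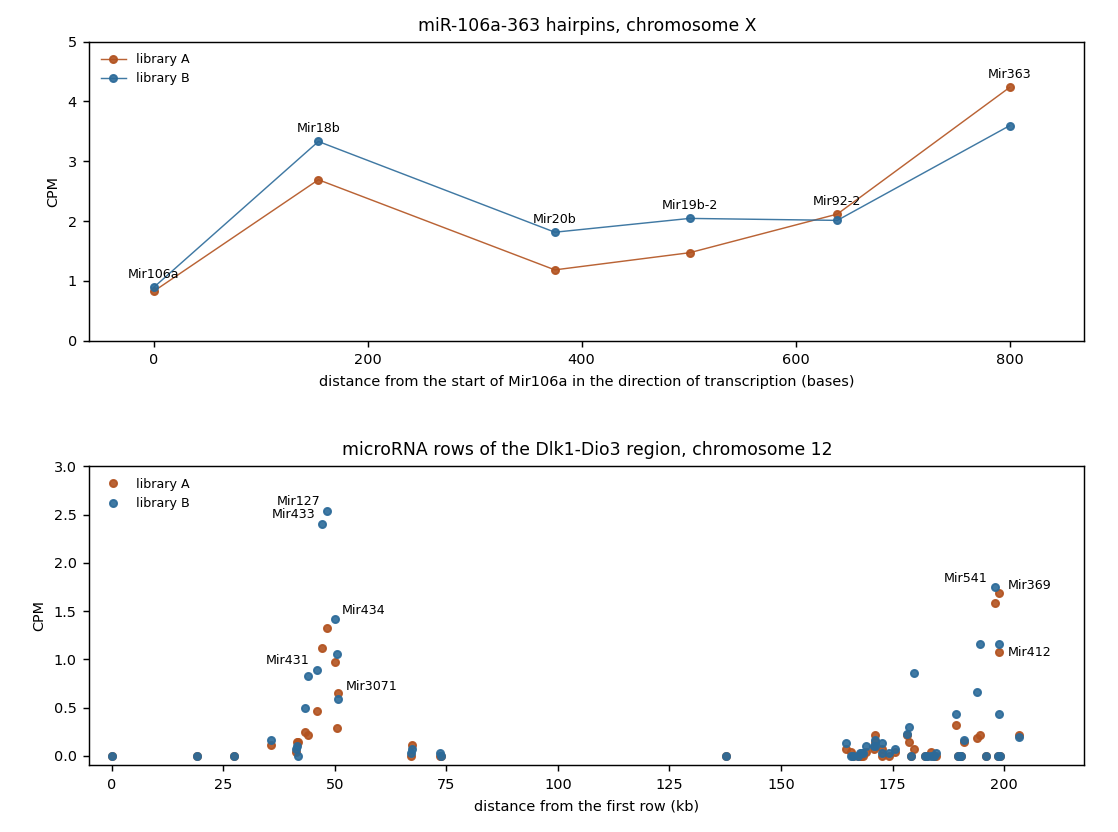
Level in CPM of microRNA rows in library A and library B against distance, for the miR-106a-363 cluster (upper panel, bases) and the Dlk1-Dio3 region (lower panel, kb, member genes named). In the upper panel both libraries have 1 high point at Mir18b and another at Mir363, and in the lower panel the named genes form groups at the Rtl1 locus and in Mirg, among rows mostly near 0.

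The Dlk1-Dio3 region of chromosome 12 is an imprinted domain whose microRNAs are made from the maternal chromosome. It held 58 microRNA rows, of which 8 were members and 17 had 0 counts in both libraries. Members and other rows together summed to 345 counts in A and 576 in B, or 12.4 CPM in A and 19.0 CPM in B. Mir431, Mir433, Mir127 and Mir434 lie antisense to Rtl1, a gene derived from a retrotransposon and known to be repressed by them. Mir433 (chr12:109591715-109591838) had 31 counts in A and 73 in B, and Mir127 (chr12:109592846-109592915) had 37 in A and 77 in B. Mir431 had 13 in A and 27 in B, and Mir434 had 27 in A and 43 in B. All 4 had more counts in B. Rtl1 had 1 count in A and 0 in B, while Mir3071, annotated on the strand of Rtl1 and inside its exon, had 18 in each library. Because Mir3071 lies opposite the microRNA strand and the strand setting of the counting is not given, its level is uncertain.

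The other 3 genes of the region lay in Mirg, a noncoding host of many microRNAs that had 3303 counts in A and 4087 in B. Mir541 had 44 counts in A and 53 in B, Mir369 had 47 in A and 35 in B, and Mir412 had 30 in A and 13 in B. Mir541 lies in an intron, while Mir369 overlaps an annotated exon of Mirg by 1 base and Mir412 by 12 bases. Mir412 was higher in A while Mirg was higher in B. Of the 8 members of the region, Mir433 and Mir127 were called higher in B and Mir412 higher in A by the test given below.

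Of the let-7 family, whose maturation Lin28 is known to block in ES cells, 10 of 12 listed genes had a row and 3 were members. Mirlet7a-1 had 14 counts in A and 28 in B, Mirlet7c-2 had 16 in A and 11 in B, and Mirlet7g had 16 in A and 19 in B. All 3 were under 1 CPM in both libraries. The 5 measured genes of miR-15 and miR-16 summed to 4 counts in A and 5 in B. The Mir302 cluster, which is known for high expression in ES cells of the primed state, summed to 3 in A and 2 in B. Neither had a member. Of 8 listed microRNAs known to mature without the Microprocessor, 7 were at 0 in both libraries, and Mir484 had 2 counts, both in B. Mir1306, annotated inside an exon of Dgcr8, had 0 in both.

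Intronic genes were led, after Gm24270, by Mir5125 (chr17:23823291-23823369, plus strand) in Srrm2, which encodes a protein of the spliceosome. Mir5125 had 172 counts in A and 96 in B. Srrm2 had 14201 in A and 26186 in B, so the microRNA gene was higher in A and its host in B. Mir23b, with 52 counts in A and 60 in B, lay 228 bases before Mir27b, with 74 in A and 59 in B. Both sit in 2010111I01Rik (also called Aopep), Mir23b in an intron and Mir27b inside an annotated exon. The remaining intronic genes were low. Mir3091 in the ribosomal protein gene Rps21 had 23 counts in A and 17 in B, and Mir7-1 in the RNA-binding protein gene Hnrnpk had 17 in A and 20 in B.

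Among exonic genes, 4 lay wholly inside exons of hosts at 10 CPM or more, Mir27b, Mir1191, Mir3082 and Mir3098. Mir1191 in BC024978 had 41 counts in A and 18 in B, higher in A, while its host had 309 in A and 409 in B. Mir3082 in the ubiquitin ligase gene Stub1 had 16 in each library. Mir3098 in the mitochondrial ribosomal protein gene Mrpl51 had 12 in A and 11 in B. Mir31, whose host AL805899.1 has no row in the tables, had 28 in A and 29 in B.

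Further genes at their own loci are known from differentiated tissues. Mir196a-1, which lies in a Hox gene cluster, had 40 counts in A and 33 in B. Mir29a, whose family targets de novo DNA methyltransferases, had 15 in A and 20 in B. Mir182, of a cluster known from sense organs, had 10 in A and 21 in B, and its cluster partner Mir96 had 0 in A and 10 in B. Mir23a had 10 in A and 12 in B.

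The limit of 10 counts cut through a continuous range. Just inside it stood Mir182, Mir23a, Gm24276, Mir3098 and Mirlet7c-2, each with 10 or 11 counts in its lower library. Just outside, with 8 or 9, stood Mir181c, Mir432, Mir221, Mir382, Mir5136, Mir8091 and Mir8094. Mir432, also opposite Rtl1, had 8 counts in A and 32 in B. In all, 28 rows outside the miR-290 cluster reached 10 counts in 1 library alone, these 7 among them.

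Hosts and the genes within them were compared per length, as RPKM, CPM per kilobase of annotated exon. Reads that cover a hairpin only in part may add to its count, so RPKM of hairpins is uncertain, and host lengths include all annotated exons. Of the 23 genes with a host, 19 had a host with a row in the tables, 16 different hosts in all. The median RPKM of the microRNA gene over its host was 1.20 in A and 0.693 in B over 18 pairs, leaving out Mir3071 because its host Rtl1 had 1 count in A and 0 in B. For the 8 intronic genes it was 0.622 in A and 0.373 in B, and for the other 10 exonic genes 1.38 in A and 0.982 in B. These genes were chosen for their own counts, so the medians do not describe hairpins within hosts in general. Outside the miR-290 cluster, 520 of 720 intronic rows and 286 of 343 exonic rows had 0 counts in both libraries. The medians include Gm24270, Mir692-2, Gm22774 and Mirlet7a-1, which have near-identical transcripts elsewhere and uncertain levels. The exonic genes include Mir369, Mir106a and Mir412, which overlap an exon by only 1, 5 and 12 bases.

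The ratio varied widely between pairs. Gm24270 was 35.8 times its host Peak1 in A and 28.2 times in B, but its sequence is identical to that of Gm23935, so its level is uncertain. Mir27b was 9.51 times its host in A and 9.04 times in B. At the low end, Mir3091 was 0.0189 times Rps21 in A and 0.0249 times in B. The microRNA gene exceeded its host in both libraries in 8 of the 19 pairs. The 95% intervals of the ratio of A over B, for gene and host, overlapped in 14 pairs. They did not overlap for Mir5125 and Srrm2, Mir1191 and BC024978, or Mir369 and Mir412 and their host Mirg. The remaining pair was Mir3071 with Rtl1, whose 1 and 0 counts allow no comparison.

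**Figure D3:**
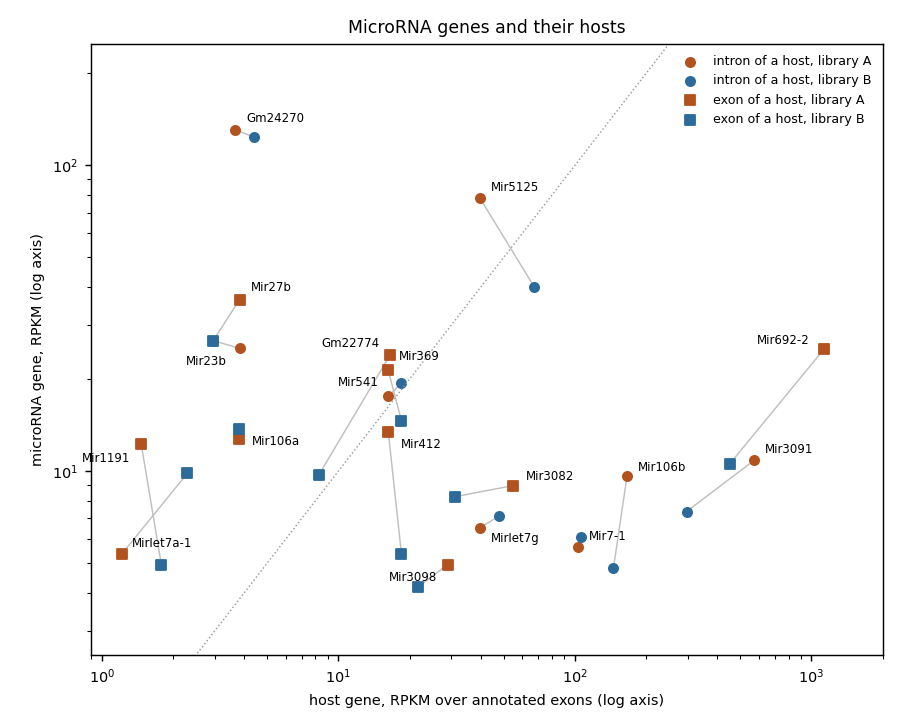
RPKM of each microRNA gene against RPKM of its host on log axes, in library A and library B joined by a line, with circles for intronic and squares for exonic genes. The dotted line marks equal RPKM, 8 pairs lie above it in both libraries, Gm24270 lies farthest above it, and Mir3071 with Rtl1 is not drawn because that host had 1 count in A and 0 in B. Mir23b and Mir27b coincide in B. The level of Gm24270 is uncertain because its sequence is identical to that of Gm23935.

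Each gene was then compared between the libraries by an exact binomial test, two-sided, of its counts in A and B given library sizes scaled by TMM, with Benjamini-Hochberg adjustment over all 16187 genes with at least 20 counts in total. The test asks whether these libraries differed by more than counting error, not whether conditions differed. Of all genes tested, 71.5% were called at an adjusted p under 0.05, 35.3% higher in A and 36.2% higher in B. Of the 45 microRNA genes, 16 were called, or 35.6%, with 11 higher in A and 5 higher in B, and 29 were not. The median member had 97 counts over both libraries, against 1002 for the genes tested, and the part of depth in these shares was not tested. Members also had to reach 10 counts in each library, which left out 28 microRNA rows that reached 10 in 1 library alone. The genes tested faced no such limit, so these shares are not alike, and the part of the rule in them was not tested. The median log2 ratio of A over B was 0.01 over the members and 0.01 over all genes tested. Log2 ratios were taken of TMM-scaled CPM plus 0.5, which understates the ratios of low genes.

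Of the genes higher in A, Gm26384 had the largest ratio, with a log2 of 1.20 (adjusted p = 4e-30). Mir296 followed at 1.17 (adjusted p = 2.13e-10), and Mir298 at 0.84 (adjusted p = 0.000131). The ferritin-like genes lay close together, Gm22774 at 0.92, Mir692-1 at 0.89 and Mir692-2 at 0.88. Ftl1 and Ftl2-ps moved in the same direction, at 1.29 and 1.21. Eef1a1 stood at 0.30, against 1.20 for Gm26384 and 0.46 for Gm24276, which was not called. Rpl19 stood at 0.46 against 0.22 for Gm27529, and Actg1 at 0.29 against -0.36 for Gm23374, neither microRNA gene called. The part of near-identical transcripts in the ratios was not tested. Mir5125 stood at 0.77 (adjusted p = 4.72e-06), against -0.86 for its host Srrm2. Mir1191 stood at 0.78, Mir412 at 0.70, Gm23935 at 0.64 and Gm24187 at 0.36. These p-values are from the exact binomial test described above.

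Of the genes higher in B, Mir433 had the largest difference, with a log2 ratio of -0.93 (exact binomial test, adjusted p = 9.31e-05). Mir127 followed at -0.81 and Gm26298 at -0.78. Mir20b, the only called gene of the miR-106a-363 cluster, stood at -0.54 (exact binomial test, adjusted p = 0.0357), but it was not called with library totals in place of TMM or with no filter on low counts. Mir6236 stood at -0.36 (exact binomial test, adjusted p = 0.000466).

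By place, 11 of the 22 genes at their own loci were called, 6 higher in A and 5 in B. In introns 1 of 8 was called, Mir5125, and in exons 4 of 15, all higher in A. The 12 genes with a near-identical transcript elsewhere gave 7 of the 16 calls, 6 of them higher in A. Without these 12 genes, 9 of 33 were called, 5 higher in A and 4 in B. Over all genes tested the share called was 71.5%. The groups differ in depth and in near-identical copies, and the part of either in these counts was not tested.

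**Figure D4:**
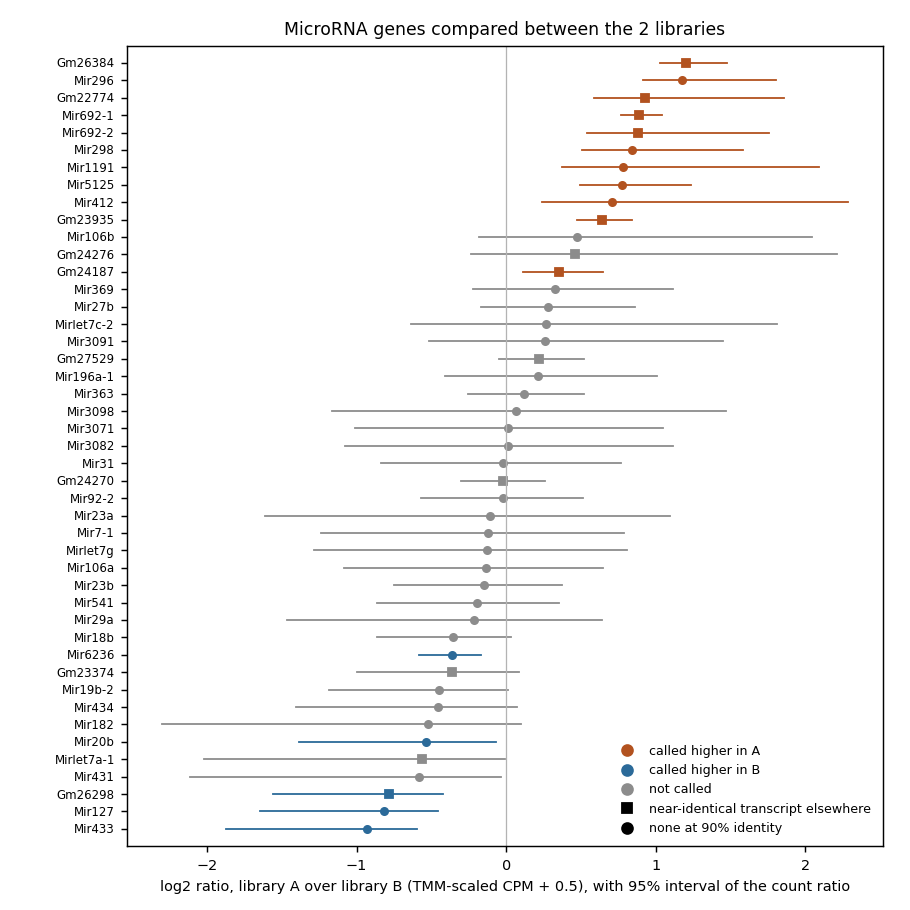
Log2 ratio of library A over library B for each microRNA gene, with the 95% interval of the count ratio as a line and colours for genes called higher in A, higher in B or not called. Squares mark genes with a near-identical transcript elsewhere, which make up 6 of the 11 genes called higher in A and 1 of the 5 called higher in B.

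GC content of the hairpin genes had a median of 62.4% in the 11 genes called higher in A, 56.1% in the 5 called higher in B and 48.0% in the 29 not called. The sets overlapped, with ranges of 31.8% to 73.7% in the first, 46.2% to 57.1% in the second and 32.7% to 73.7% in the last. Without the near-identical genes the medians were 53.8% in 5 genes higher in A, 56.3% in 4 higher in B and 48.0% in 24 not called. Across the 45 genes, GC content and the log2 ratio had a Pearson r of 0.22, and 0.23 without the 12 near-identical genes. The points share the same 2 libraries, and the part of GC content in the ratios was not tested.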

How the data were processed

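Gene expression was measured as polyadenylated RNA in 2 Dgcr8 knockout libraries of 1 group. The authors deposited whole-number read counts per Ensembl gene, with no normalization. The build mm10, STAR 2.4.2a and featureCounts 1.4.5-p1 are listed, with no role, in the submitters' processing notes. The labels describe a reverse-stranded protocol. Not given in the sources used here are the annotation release, the strand setting, and how reads of several genes or places were treated. Rows were matched by identifier to GENCODE M21 (GRCm38, which is mm10): 42462 of 43629 identifiers matched, with 99.8% of the counts of each library.

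Levels are CPM of the library total, 27872396 counts in A and 30327146 in B, with exact 95% Poisson limits. Near-identical transcripts were found with BLAST 2.17.0 among the transcripts of GENCODE M21 alone. With 1 group and no contrast, edgeR's quasi-likelihood test could not be used. Libraries were compared instead with the exact binomial test (scipy 1.17.1, Python 3.11.15) after TMM scaling in edgeR 4.0.16 (R 4.3.3), with factors of 1.04 for A and 0.965 for B. The test was tried on simulated Poisson counts. These hold only the counting error that the test assumes, so the trial does not cover spread beyond it. DESeq2 1.42.0 size factors, library totals, other filters and limits, other pseudocounts, Fisher's exact test and each library left out were the alternatives.

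Genes named are the 20 highest members, the 5 highest of each place, the 5 largest ratios in each direction among called members, every member of a listed cluster or family, and genes at the count limit. Other genes were named after their values were seen. The members and lists were chosen with earlier results of these data known.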

Additional observations from a re-analysis of the deposited data

How the results depend on the processing

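The number of genes depended on the count limit: 71 reached 5 counts in each library and 29 reached 20, against 45 at 10, and 50 to 68 reached 10 in a single library when the other was left out. The median level was 1.42 to 1.47 CPM with 1 library left out, against 1.66 for the mean of both. The median log2 ratio of A over B, 0.01, was 0 with DESeq2 size factors. With library totals in place of TMM, the median over all genes tested moved to 0.10, calls split into 6665 higher in A and 4983 higher in B against 5711 and 5857, and those of the microRNA genes into 12 and 4. The direction then turned for Gm24270 (0.076), Mir31 (0.047) and Mir92-2 (0.059), none of them called, and Gm27529 was called (exact binomial test, adjusted p = 0.0249). DESeq2 size factors gave a ratio of 0 for Mir3071 and Mir3082. Mir20b lost its call with library totals (adjusted p = 0.0740) and with no filter (adjusted p = 0.0506), both by the exact binomial test. All other tested genes kept direction and call under these settings, Fisher's exact test and a filter of 1 CPM, which left 30 of the 45 genes to test. An alternative chosen after seeing the data, leaving out the 12 genes with a near-identical transcript elsewhere, gave 9 calls in place of 16. The causes were not tested. No paired analysis was possible because all libraries belong to 1 group. Genes near 10 counts have Poisson intervals several-fold wide, which limits what their ratios can show.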
